A study of Mus musculus with 24 samples.

Results

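The set comprised 6 genes, taken by symbol from the deposited gene table: *Plau* (urokinase, uPA), *Plat* (tissue plasminogen activator, tPA), *Plaur* (the urokinase receptor, uPAR) and the serpins *Serpine2*, *Serpinb2* and *Serpinf1*. They were 6 of the 54429 genes in that table. Of these, 5 had enough counts to be tested, among 12797 genes tested in all, and *Plat* was below the filter on low counts. The libraries came from bone marrow macrophages of C57BL/6N mice, either wild type (WT) or knockout (KO) for MK2, the kinase that *Mapkapk2* encodes. In every group, marrow cells were cultured in M-CSF (10 ng/ml) and replated on day 7. They were then left unstimulated (M0) or received IL-4 at 10 ng/ml (M2) and were harvested after 24 h. Each of the 4 groups held 6 libraries, WT M0, WT M2, KO M0 and KO M2. The labels gave no sex or age, did not say which part of *Mapkapk2* was deleted, and did not say whether the libraries of a group came from separate mice, so p-values here measure the spread between these libraries.

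Urokinase and tPA are serine proteases that cleave plasminogen to plasmin, a broad protease that dissolves fibrin, degrades matrix and activates other enzymes. Macrophages secrete urokinase and hold it at their surface on uPAR, a GPI-anchored receptor that also associates with integrins. Serpins trap such proteases in covalent complexes: *Serpine2* encodes protease nexin-1, which inhibits thrombin, urokinase, tPA and plasmin, and *Serpinb2* encodes PAI-2, a largely intracellular serpin known as an inhibitor of urokinase and as an inducible macrophage product. *Serpinf1* encodes PEDF, a secreted serpin-fold protein that does not inhibit proteases and is known as an anti-angiogenic factor of stromal cells.

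The targeted gene, *Mapkapk2*, was lower in every knockout library than in every wild-type library. Its scaled counts (CPM, counts scaled to library size after TMM normalisation) had a lowest, median and highest value of 100.3, 117 and 138 in WT M0 and of 113, 116 and 139 in WT M2. The same 3 values were 54.7, 58.7 and 63.4 in KO M0 and 47.8, 54.0 and 60.7 in KO M2, a log2 fold change of -1.01 without and -1.15 with IL-4. A transcript was still counted in the knockout. Total counts ran from 7893809 to 13492507 per library. The 11 macrophage markers were all above the filter and summed to between 11726 and 19919 CPM of the total count in all 24 libraries, whereas T, NK and B cell markers summed to at most 3.09 CPM. Neutrophil markers summed to at most 267 CPM and megakaryocyte and platelet markers to at most 193 CPM. Both had lower means in the knockout, in ranges that overlapped between the genotypes in each state. A list of 15 stromal and fibroblast markers, among them *Col1a1*, *Dcn* and *Pdgfra*, summed to 116 to 180.5 CPM in WT M0 and 112 to 159.7 CPM in WT M2, against 10.1 to 28.4 CPM in KO M0 and 9.26 to 22.5 CPM in KO M2. Of these 15, 12 were tested and all 12 were lower in the knockout in both states (all tested genes: 3.42% called lower without and 3.09% with IL-4). Their median log2 fold change was -3.38 without and -3.46 with IL-4. For IL-4, 0 of the 12 passed the test in either genotype (all tested genes: 16.4% called in wild type and 23.6% in the knockout). Some of the 12, such as *Dcn* (0.326 CPM in KO M0), were hardly counted in the knockout, so these counts are a description. These libraries are bulk cultures, in which fewer cells of a type and less RNA per cell cannot be told apart.

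Promoter windows are shown for the 4 genes with a difference past the test threshold, from 250 bases before to 50 bases after the RefSeq transcript start in GRCm38.p6, because 2 of them moved with IL-4 and 3 with the genotype. Capitals mark a match to the AP-1 motif TGANTCA, searched on both strands. The windows were chr7:24462233-24462532 on the plus strand for *Plaur*, chr1:79858616-79858915 on the minus strand for *Serpine2*, chr1:107511173-107511472 on the plus strand for *Serpinb2* and chr11:75422574-75422873 on the minus strand for *Serpinf1*. The table held no window for *Plau* or *Plat*.
Plaur: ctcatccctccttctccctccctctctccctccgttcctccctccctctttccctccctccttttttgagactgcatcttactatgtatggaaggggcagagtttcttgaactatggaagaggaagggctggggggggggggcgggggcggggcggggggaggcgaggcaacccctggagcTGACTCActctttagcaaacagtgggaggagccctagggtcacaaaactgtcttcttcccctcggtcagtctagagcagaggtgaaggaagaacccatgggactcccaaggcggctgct
Serpine2: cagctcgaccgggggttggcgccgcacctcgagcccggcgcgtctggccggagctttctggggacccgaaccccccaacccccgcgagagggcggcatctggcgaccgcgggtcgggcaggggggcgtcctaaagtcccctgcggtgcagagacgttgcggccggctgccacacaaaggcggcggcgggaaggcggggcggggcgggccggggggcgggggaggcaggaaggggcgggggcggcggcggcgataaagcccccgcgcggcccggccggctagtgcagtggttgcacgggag
Serpinb2: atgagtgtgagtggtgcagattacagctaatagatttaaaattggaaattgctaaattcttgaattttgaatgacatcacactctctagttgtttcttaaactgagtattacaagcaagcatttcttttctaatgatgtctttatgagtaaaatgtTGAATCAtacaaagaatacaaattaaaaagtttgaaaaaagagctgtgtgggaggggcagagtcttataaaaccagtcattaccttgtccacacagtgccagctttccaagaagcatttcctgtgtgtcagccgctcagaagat
Serpinf1: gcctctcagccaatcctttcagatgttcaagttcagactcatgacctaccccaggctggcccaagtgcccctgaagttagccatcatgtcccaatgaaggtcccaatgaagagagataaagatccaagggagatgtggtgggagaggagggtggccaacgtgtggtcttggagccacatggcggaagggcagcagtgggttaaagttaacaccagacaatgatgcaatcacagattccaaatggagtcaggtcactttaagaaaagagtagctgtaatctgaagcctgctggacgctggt
The *Plaur* match starts at position -69 from the transcript start and the *Serpinb2* match at -94. A second, overlapping *Serpinb2* window in the table holds the same match. The motif was found in 2565 of 32851 windows (7.81%). The STAT6-type element, TTC and GAA with any 4 bases between them, also searched on both strands, was in 6.95% of windows and in none of these 4. A match of letters describes the window and is no evidence of binding, and no match says only that these letters are absent from the window.

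MK2 is known to act on mRNAs with AU-rich elements, so the 3′UTR of each gene's longest coding transcript (GENCODE M21, GRCm38) was searched on the transcript strand for the pentamer ATTTA and the nonamer TTATTTATT, which contains an ATTTA. *Serpinb2* had 5 pentamers in 651 bases, and 3.51% of 2477 genes with a 3′UTR of like length (0.8 to 1.25 times) had as many. *Plau*, *Plat* and *Plaur* had 2 pentamers each, *Serpinf1* had 1 and *Serpine2* had 0. The nonamer occurred once in *Serpinb2* and in none of the other 5 members, and 3.88% of genes of like 3′UTR length had one. It is shown in capitals with its flanks, bases 256 to 284 of the 3′UTR, because it is the only such element among the members. Here, too, a match of letters only describes the sequence. Whether MK2 acts on any of these transcripts was not tested.
Serpinb2 3′UTR site: ttttacagtgTTATTTATTgtttatataa

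Levels of different genes were compared on the deposited GETMM scale, which is per length. In WT M0 the order was *Plau*, *Plaur*, *Serpine2*, *Serpinf1*, *Serpinb2* and *Plat*, with mean levels of 112 ± 30.3, 50.4 ± 3.73, 19.6 ± 4.46, 4.97 ± 1.35, 2.31 ± 0.380 and 0.215 ± 0.141 GETMM (SD, n = 6). No neighbours in this order overlapped over the 6 WT M0 libraries. In WT M2 the order was the same, but *Serpinf1* (1.56 to 5.54 GETMM) and *Serpinb2* (1.22 to 3.72 GETMM) overlapped. In KO M0 *Plau* at 159 ± 25.8, *Plaur* at 42.4 ± 5.17 and *Serpine2* at 17.5 ± 5.08 GETMM remained in that order without overlap, and in KO M2 they were at 130.4 ± 24.6, 56.8 ± 7.83 and 5.88 ± 2.23 GETMM. The other 3 members were at most 1.12 GETMM in every knockout library, below *Serpine2*. In KO M0 *Serpinf1*, *Serpinb2* and *Plat* overlapped with their neighbours. In KO M2 *Serpinf1* overlapped with *Serpinb2*, while *Serpinb2* (0.141 to 0.592 GETMM) lay above *Plat* (at most 0.113 GETMM). Within a library the level of *Plau* was above that of its receptor throughout: the ratio of *Plau* to *Plaur* ran from 1.54 to 2.62 in WT M0, 1.31 to 2.25 in WT M2, 3.12 to 4.82 in KO M0 and 1.85 to 2.95 in KO M2. The ratio of *Plau* to *Serpine2* had medians of 5.69, 10.2, 9.73 and 23.1 in the same 4 groups. These ratios are descriptions and carry no test.

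**Figure D1:**
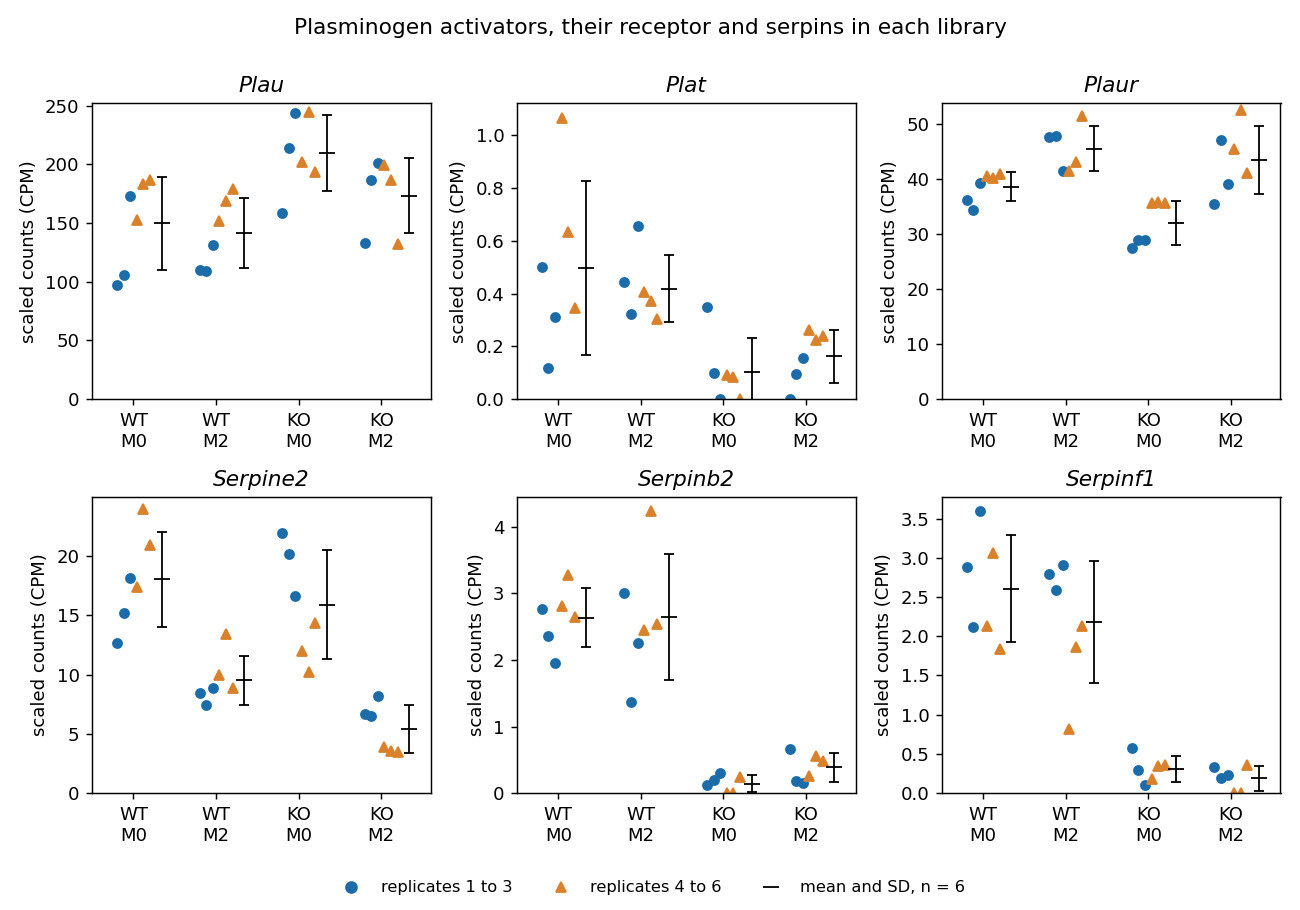
Scaled counts (CPM, linear axis from 0) of the 6 genes in the 24 libraries, by group; points are libraries, circles are replicates 1 to 3, triangles are replicates 4 to 6, and bars are the mean and SD over 6 libraries. *Serpinb2* and *Serpinf1* sit lower in all 12 knockout libraries than in any wild-type library of the same state, *Serpine2* is lower with IL-4, and *Plau* spans overlapping ranges in all 4 groups.

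With IL-4, wild-type macrophages had less *Serpine2* and otherwise no called change in the set. It was 1 of the 5 tested members (all tested genes: 16.4% called in either direction, 7.95% lower), by edgeR's quasi-likelihood test with Benjamini-Hochberg adjusted p below 0.05. In knockout macrophages IL-4 lowered *Serpine2* and raised *Plaur*, 2 of 5 tested members (all tested genes: 23.6% called). Without IL-4 the knockout had less *Serpinb2* and *Serpinf1* than wild type, 2 of 5 tested members (all tested genes: 4.52% called, 3.42% lower). With IL-4 these 2 and *Serpine2* were lower in the knockout, 3 of 5 (all tested genes: 4.59% called, 3.09% lower). The median log2 fold change of the 5 was -0.08 for IL-4 in wild type and -0.27 for IL-4 in the knockout, against -0.02 and 0.00 over all tested genes. For the knockout it was -0.27 without and -0.78 with IL-4, against -0.01 and 0.01. *Serpinb2* and *Serpinf1* passed the filter only through their wild-type counts, so these counts and medians are a description. The 4 comparisons share groups pairwise and are therefore not independent of each other.

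**Figure D2:**
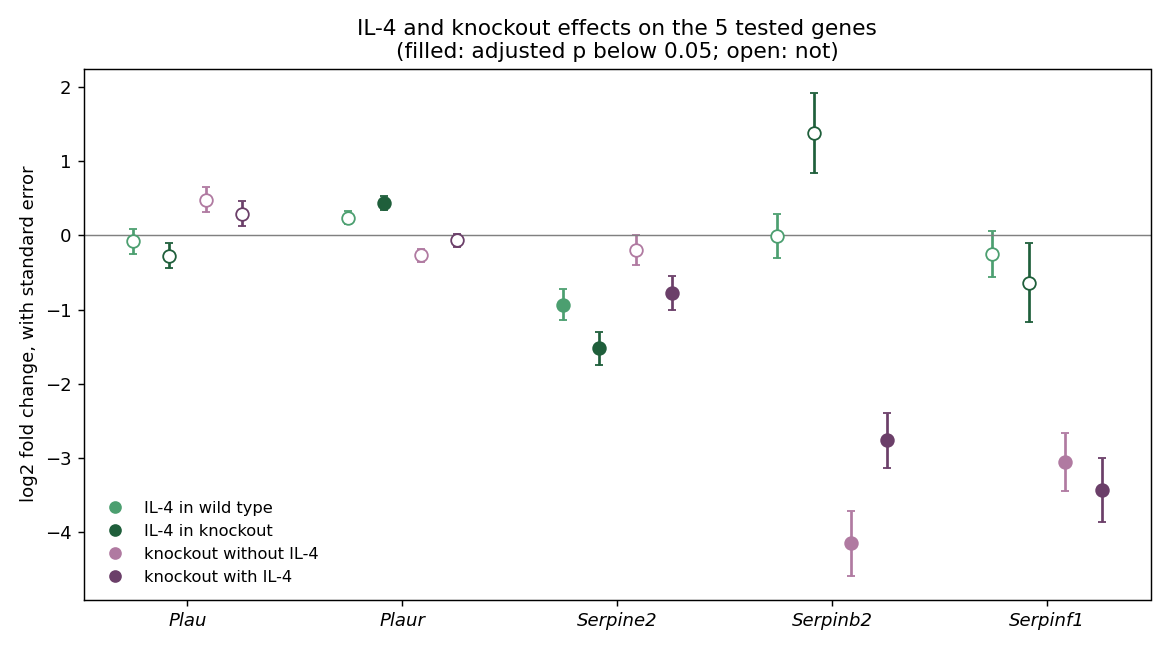
Log2 fold change with its standard error (y axis) of the 5 tested genes for IL-4 in each genotype (greens) and for the knockout in each state (purples); filled points have an adjusted p below 0.05 in edgeR's quasi-likelihood test and open points do not. The largest differences are those of *Serpinb2* and *Serpinf1* by genotype, *Serpine2* lies below 0 in all 4 and is filled in 3, and *Plau* is open in all 4.

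*Plau* (chr14:20836660-20843385, plus strand, GRCm38) was the most abundant member and had no called difference in the fit over the 4 groups. Its lowest, median and highest values were 97.3, 163 and 186 CPM in WT M0 and 109, 141 and 179 CPM in WT M2. They were 159, 208 and 245 CPM in KO M0 and 132, 187 and 201 CPM in KO M2. All 4 ranges overlapped, and in WT M0 the libraries split into a pair near 100 CPM (97.3 and 106) and 4 from 152 to 186. The knockout means were higher, 209 ± 32.5 against 149.7 ± 39.3 CPM without IL-4 (SD, n = 6; log2 fold change 0.48, SE 0.17, edgeR adjusted p = 0.126) and 173 ± 32.0 against 142 ± 29.6 CPM with IL-4 (0.29, SE 0.17, adjusted p = 0.527). IL-4 gave -0.08 (SE 0.17, adjusted p = 0.797) in wild type and -0.27 (SE 0.17, adjusted p = 0.283) in the knockout. All 6 same-numbered knockout cultures had less *Plau* with IL-4, and an edgeR fit blocked by culture number called that difference (adjusted p = 0.00764). A block by replicate number called the knockout difference without IL-4 (edgeR adjusted p = 0.0148).

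*Plat* (chr8:22757727-22782844, plus strand) was near the limit of detection. The 6 libraries held 1 to 11 counts in WT M0, 3 to 7 in WT M2, 0 to 3 in KO M0 and 0 to 2 in KO M2. Summed over a group these were 29, 25, 6 and 9 counts. The summed counts were higher in wild type: scaled by the libraries' sizes, the wild-type sum was 5.00 times the knockout's without IL-4 (exact binomial 95% interval 2.04 to 14.7) and 2.66 times with IL-4 (1.20 to 6.48). These intervals cover counting error only. The CPM ranges overlapped without IL-4 and did not with IL-4, a gap that rests on 3 counts against 2. With no filter on low counts, edgeR gave -2.15 (SE 0.64, adjusted p = 0.0762) and -1.32 (SE 0.61, adjusted p = 0.531), so neither difference passed the threshold. The stromal marker sum was also lower in all 12 knockout libraries, and its part in the *Plat* counts was not tested.

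*Plaur* (chr7:24462484-24475968, plus strand) rose with IL-4 in the knockout and had a smaller difference of the same sign in wild type, which did not pass the test. In KO M0 its lowest, median and highest values were 27.4, 32.3 and 35.7 CPM, and in KO M2 35.4, 43.2 and 52.5 CPM. Those ranges met at their edges, with 1 KO M2 library (35.4 CPM) below the 3 highest KO M0 libraries (35.6 to 35.7 CPM). The means were 32.0 ± 4.01 and 43.4 ± 6.13 CPM (SD, n = 6), and the level fitted by edgeR rose by 35.4% (log2 fold change 0.44, SE 0.09, edgeR adjusted p = 0.00061). In wild type the values were 34.4, 39.7 and 40.9 CPM in M0 and 41.4, 45.3 and 51.4 CPM in M2. These ranges did not overlap (8.16% of all tested genes had groups that did not overlap), yet the difference of 0.24 (SE 0.09) missed the threshold (edgeR adjusted p = 0.0699). It was called in 4 of 12 alternative fits, among them the block by culture number. Between genotypes *Plaur* gave -0.27 (SE 0.09, adjusted p = 0.102) without IL-4 and -0.07 (SE 0.09, adjusted p = 0.882) with IL-4. The receptor and its ligand therefore had opposite signs in the knockout without IL-4, neither past the threshold.

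*Serpine2* (chr1:79794197-79861180, minus strand) fell with IL-4 in both genotypes. In wild type its lowest, median and highest values were 12.7, 17.8 and 24.0 CPM in M0 and 7.44, 8.87 and 13.5 CPM in M2. One WT M2 library, replicate 5 at 13.5 CPM, lay within the WT M0 range, and the other 5 (7.44 to 9.97 CPM) lay below it. The means were 18.0 ± 4.02 and 9.51 ± 2.09 CPM (SD, n = 6), and the level fitted by edgeR fell by 47.6% (log2 fold change -0.93, SE 0.21, edgeR adjusted p = 0.00268). In the knockout the values were 10.2, 15.5 and 21.9 CPM in M0 and 3.49, 5.21 and 8.23 CPM in M2, with no overlap (14% of all tested genes did not overlap). There the means were 15.9 ± 4.59 and 5.40 ± 2.00 CPM, and the fitted level fell by 65.2% (log2 fold change -1.52, SE 0.22, edgeR adjusted p = 1.09e-05). In replicates 1 to 3 and in replicates 4 to 6 the log2 fold change was -0.90 and -0.95 in wild type and -1.45 and -1.72 in the knockout. The difference between the genotypes' responses was -0.59 (SE 0.30, edgeR adjusted p = 1).

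The *Serpine2* level in knockout against wild type differed between the libraries of replicates 1 to 3 and those of replicates 4 to 6. The labels number the libraries of these sets in separate runs, except for 3 libraries (WT M0 replicate 3, WT M2 replicate 2 and KO M2 replicate 2) numbered apart from both, and do not say what the runs were. Without IL-4, replicates 1 to 3 had 12.7, 15.2 and 18.1 CPM in wild type and 21.9, 20.2 and 16.6 CPM in the knockout, and replicates 4 to 6 had 17.4, 24.0 and 20.96 against 12.01, 10.2 and 14.3 CPM. The knockout was thus mostly higher in the first set (log2 fold change 0.34) and lower in every library of the second (-0.78). The difference between these, -1.12 (SE 0.24), passed the test (edgeR adjusted p = 0.0247), as it did for 1.81% of all tested genes. This test was chosen after seeing the data, so its result here and with IL-4 is a description. With IL-4, replicates 1 to 3 had 8.48, 7.44 and 8.90 CPM in wild type and 6.69, 6.50 and 8.23 CPM in the knockout. Replicates 4 to 6 had 9.97, 13.5 and 8.84 against 3.91, 3.59 and 3.49 CPM. The genotypes overlapped in the first set (-0.20) and were apart in the second (-1.55), a difference of -1.34 (SE 0.27, edgeR adjusted p = 0.0286; 0.781% of all tested genes).

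Pooled over both sets, *Serpine2* gave -0.19 (SE 0.20, edgeR adjusted p = 0.739) in the knockout without IL-4. With IL-4 the pooled means were 9.51 ± 2.09 CPM in wild type and 5.40 ± 2.00 CPM in the knockout (SD, n = 6), a fitted log2 fold change of -0.78 (SE 0.23, edgeR adjusted p = 0.0465), in groups that overlapped (3.49 to 8.23 against 7.44 to 13.5 CPM). That call rested on replicates 4 to 6, since replicates 1 to 3 alone gave -0.20 (adjusted p = 0.879) and replicates 4 to 6 alone gave -1.54 (adjusted p = 7.26e-05). It was also lost in 10 of the 12 fits that each left out 1 of these libraries, with adjusted p from 0.0526 to 0.139, although the log2 fold change over the 12 fits ran from -0.95 to -0.66. It stayed past the threshold only without WT M2 replicate 2 (0.0373) or without KO M2 replicate 3 (0.0151). No other member's genotype difference, and no member's IL-4 response, differed between the sets past the threshold (all tested genes: 0.0156% called for IL-4 in wild type and 0% in the knockout). In KO M0, where the stromal marker sum was 10.1 to 28.4 CPM, *Serpine2* ranged over 10.2 to 21.9 CPM, overlapping with WT M0. In KO M2 that sum was 9.26 to 22.5 CPM and *Serpine2* ranged over 3.49 to 8.23 CPM. The part of the stromal signal in *Serpine2* was not tested.

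**Figure D3:**
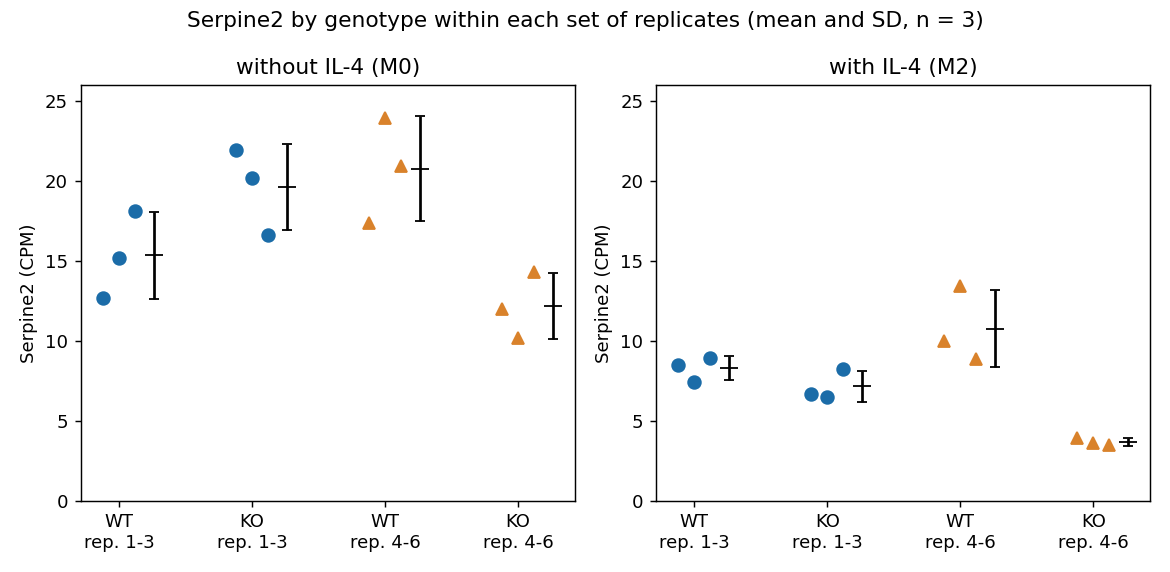
*Serpine2* scaled counts (CPM, axis from 0) in wild-type and knockout libraries, split by set of replicates, without IL-4 (left) and with IL-4 (right); points are libraries and bars are the mean and SD over 3. The knockout lies below wild type in replicates 4 to 6 in both states (12.2 against 20.8 and 3.66 against 10.8 CPM on average) and not in replicates 1 to 3 without IL-4 (19.6 against 15.3 CPM).

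*Serpinb2* (chr1:107511423-107535478, plus strand) was nearly absent from the knockout. Its 6 libraries held 22, 20, 25, 29, 31 and 23 counts in WT M0 and 27, 17, 24, 24, 34 and 25 in WT M2. They held 1, 2, 3, 0, 0 and 2 counts in KO M0 and 6, 2, 2, 2, 5 and 4 in KO M2. Every wild-type library was above every knockout library, and the genotypes did not overlap in either state (3.48% of all tested genes did not overlap without IL-4 and 3.63% with IL-4). Without IL-4 the mean was 2.63 ± 0.446 CPM for WT M0 against 0.143 ± 0.126 CPM for KO M0 (SD, n = 6), a log2 fold change of -4.15 (SE 0.43, edgeR adjusted p = 1.29e-07). From the summed counts, 150 against 8, the wild-type level was 19.4 times the knockout's (exact binomial 95% interval for counting error only, 9.59 to 45.7). With IL-4 it was 2.64 ± 0.947 against 0.386 ± 0.213 CPM, a log2 fold change of -2.77 (SE 0.37, edgeR adjusted p = 1.05e-05), and the summed counts of 151 against 21 gave 6.89 times (4.35 to 11.5). Both sets of replicates showed it, at -3.40 and -5.23 without IL-4 and -2.74 and -2.76 with IL-4. *Serpinb2* passed the filter only through its wild-type counts, so its genotype p-values and gaps are a description.

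*Serpinb2* had the same mean with and without IL-4 in wild type within its spread, with a log2 fold change of -0.01 (SE 0.30, edgeR adjusted p = 0.992). In the knockout the sum was 21 counts with IL-4 against 8 without, a ratio of 2.74 (1.16 to 7.15, counting error only). The log2 fold change of 1.38 (SE 0.54) missed the threshold (edgeR adjusted p = 0.0676). It passed without KO M0 replicate 3 (1.76, adjusted p = 0.0348), without KO M2 replicate 2 (1.53, adjusted p = 0.0485) and without KO M2 replicate 3 (1.57, adjusted p = 0.0361). Of 11 other settings 2 called it, replicates 4 to 6 alone (2.52, adjusted p = 0.0382) and the fit without the 3 libraries numbered apart (1.53, adjusted p = 0.0372), and replicates 1 to 3 alone gave 0.58 (adjusted p = 0.693). The 2 knockout groups overlapped.

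*Serpinf1* (chr11:75409769-75422701, minus strand) was likewise low in the knockout. Its 6 libraries held 23, 18, 46, 22, 29 and 16 counts in WT M0 and 25, 32, 31, 8, 15 and 21 in WT M2. They held 5, 3, 1, 2, 4 and 3 counts in KO M0 and 3, 2, 3, 0, 0 and 3 in KO M2. The genotypes did not overlap in either state (3.48% of all tested genes did not overlap without IL-4 and 3.63% with IL-4). *Serpinf1*, too, passed the filter only through its wild-type counts, so its genotype p-values and gaps are a description. The lowest wild-type library with IL-4, replicate 4, had 0.814 CPM, and the highest knockout library had 0.361 CPM. Without IL-4 the mean was 2.61 ± 0.679 CPM for WT M0 against 0.310 ± 0.166 CPM for KO M0 (SD, n = 6; log2 fold change -3.06, SE 0.39, edgeR adjusted p = 3.87e-06). With IL-4 it was 2.18 ± 0.778 against 0.186 ± 0.158 CPM (-3.43, SE 0.43, edgeR adjusted p = 2.69e-06). The summed counts were 154 against 18 and 132 against 11, or 8.85 times (5.42 to 15.3) and 11.5 times (6.23 to 23.6). These intervals, too, cover counting error only. Within the sets of replicates the log2 fold change was -3.13 and -2.96 without IL-4 and -3.41 and -3.60 with IL-4. IL-4 gave -0.26 (SE 0.31, adjusted p = 0.63) in wild type and -0.64 (SE 0.54, adjusted p = 0.464) in the knockout.

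The low *Serpinb2* and *Serpinf1* libraries were the same libraries in which stromal markers were low. All 12 knockout libraries had a stromal marker sum of at most 28.4 CPM and all 12 wild-type libraries one of at least 112 CPM. The log2 fold changes of -3.06 and -3.43 for *Serpinf1* lay near the stromal list's medians of -3.38 and -3.46, and those of *Serpinb2*, -4.15 and -2.77, lay on either side of them. *Dcn*, a stromal marker that encodes decorin, went from 6.29 to 0.326 CPM in the knockout without IL-4. Of the 15 markers only *Lum* was at 0 in KO M0, and it was hardly counted in WT M0 either (0.0162 CPM). Macrophage marker sums overlapped between the genotypes without IL-4 (14720 to 19919 CPM in wild type, 12871 to 15587 CPM in the knockout) and did not with IL-4 (14300.0 to 18344 against 11726 to 13999 CPM). The part of the stromal signal in these 2 results was not tested.

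**Figure D4:**
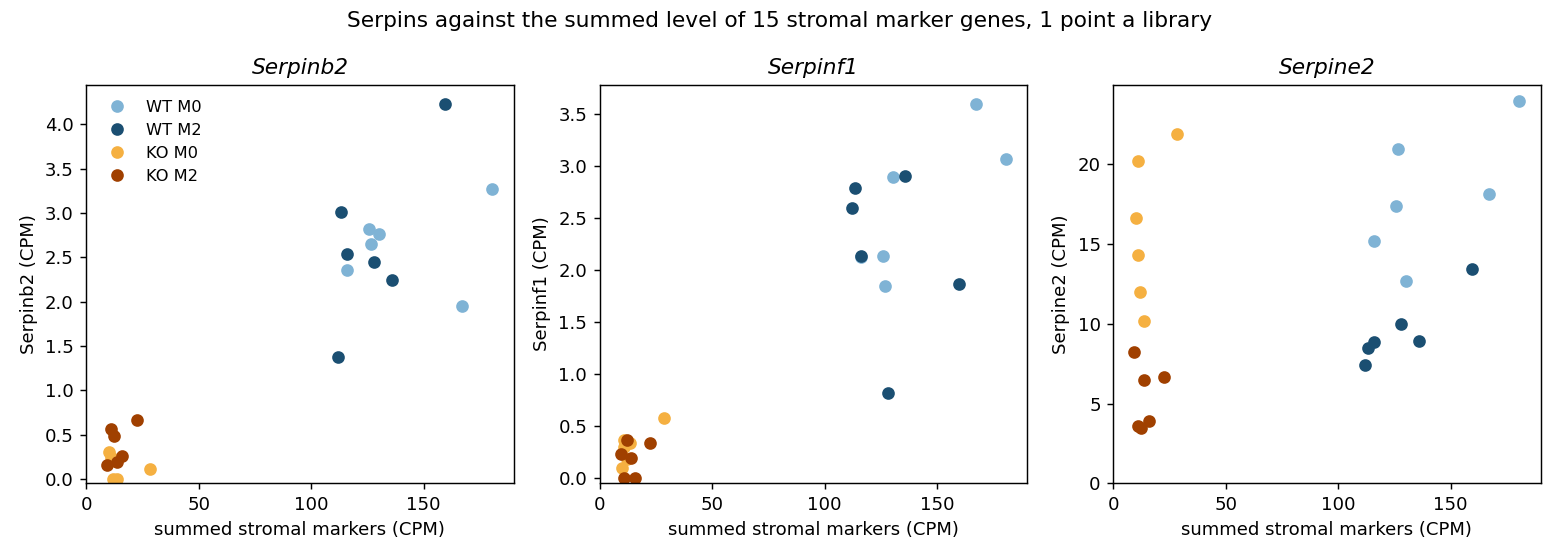
Scaled counts (CPM, y axes) of *Serpinb2*, *Serpinf1* and *Serpine2* against the summed level of 15 stromal marker genes (CPM of total counts, x axis), 1 point per library, coloured by group. For *Serpinb2* and *Serpinf1* the knockout libraries form a cluster at a marker sum of at most 28.4 CPM, apart from wild type at 112 CPM or more. At that low marker sum *Serpine2* spans 10.2 to 21.9 CPM in KO M0 and 3.49 to 8.23 CPM in KO M2.

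The response to IL-4 was not shown to differ between the genotypes for any member. Of the 5 tested, 0 passed, as did 0 of 12797 genes (0%) in edgeR's test (390 genes had an unadjusted p below 0.05), while DESeq2 called 1 gene and limma on log2(GETMM + 1) called 3, none of them a member. *Serpinb2*, at 1.39 (SE 0.62, edgeR adjusted p = 1), was the 1 member among the 390. *Plau* gave -0.19 (SE 0.24), *Plaur* 0.20 (SE 0.13) and *Serpinf1* -0.38 (SE 0.60).

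Around the activators, the surface receptors of plasminogen were expressed and the zymogen was not detected. *Plg*, plasminogen itself, had 0 counts in all 24 libraries, which does not exclude a transcript too rare to be counted at this depth. *Anxa2*, which with its partner *S100a10* forms a plasminogen receptor, stood at 1180 ± 71.5 GETMM in WT M0 (SD, n = 6). In the same group *S100a10* stood at 225 ± 24.7 and the plasminogen receptor *Plgrkt* at 85.8 ± 5.54 GETMM. Of the 8 genes of this list 5 were tested. *Anxa2* was the 1 that rose with IL-4, by 0.32 (SE 0.06, edgeR adjusted p = 0.00014) in wild type and 0.43 (SE 0.06, edgeR adjusted p = 1.25e-06) in the knockout, without overlap. None of the 5 passed for the knockout in either state, with list medians of 0.14 and 0.13. Here and in the lists below, the share of all tested genes called for IL-4 was 16.4% in wild type and 23.6% in the knockout. For the knockout it was 4.52% without and 4.59% with IL-4.

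Among 8 other inhibitors of the system 3 were tested, and all 3 were lower in the knockout in both states (all tested genes: 3.42% called lower without and 3.09% with IL-4). With IL-4, 1 of the 3 was lower in wild type and 0 in the knockout. *Serping1*, the C1 inhibitor, fell from 2.50 ± 0.779 to 0.537 ± 0.429 CPM without IL-4 (SD, n = 6; log2 fold change -2.23, SE 0.41, edgeR adjusted p = 0.000711) and by 2.65 on the log2 scale with IL-4 (SE 0.43, edgeR adjusted p = 0.000136). *Thbd*, the thrombin receptor thrombomodulin, fell by 0.50 (SE 0.09, adjusted p = 0.00114) and by 0.41 (SE 0.10, adjusted p = 0.00829). The knockout samples with less *Serping1* were again those with less stromal signal, whose part was not tested.

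Of 9 receptors that clear protease and serpin complexes 8 were tested. With IL-4, 2 rose and 0 fell in wild type, and 2 rose and 1 fell in the knockout. *Lrpap1*, a chaperone of LRP1 and its relatives, rose by 0.34 in wild type (SE 0.07, edgeR adjusted p = 0.00175) and 0.48 in the knockout (SE 0.07, edgeR adjusted p = 2.04e-05). *Lrp1*, the main clearance receptor for urokinase bound to its inhibitor, was 1666 ± 175 CPM in WT M0 and 1663 ± 211 CPM in WT M2, against 2052 ± 93.0 CPM in KO M0 and 1621 ± 138 CPM in KO M2 (SD, n = 6). It was thus higher in the knockout without IL-4 (0.30, SE 0.08, edgeR adjusted p = 0.0243) and fell with IL-4 in the knockout by 0.34 on the log2 scale (SE 0.08, adjusted p = 0.00217). In the knockout, 1 of the 8 was higher and 2 were lower without IL-4, and 0 were higher and 3 lower with IL-4 (all tested genes: 4.52% and 4.59% called). The collagen receptor *Mrc2* was lower in both states (-3.46 and -3.55) and *Vldlr* with IL-4 (-0.92). *Mrc2* was hardly counted in the knockout, with 13 counts summed over KO M0 and 10 over KO M2. The sums were 148 in WT M0 and 131 in WT M2. The part of the stromal signal in *Mrc2* was not tested. The list medians were -0.01 and -0.24 for IL-4 and -0.06 and -0.11 for the knockout.

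Of 11 genes listed for surface partners of uPAR, mostly integrins, 7 were tested, and the same 3 rose with IL-4 in each genotype. *Itgb3*, the integrin beta 3 chain, rose from 73.7 to 197 CPM in wild type (log2 fold change 1.41, SE 0.15, edgeR adjusted p = 2.42e-07) and from 84.5 to 289 CPM in the knockout (1.77, SE 0.15, edgeR adjusted p = 3.27e-09). *Itgam* and *Itgb2*, which form the Mac-1 integrin, rose by 0.30 and 0.27 in wild type and by 0.22 and 0.42 in the knockout. *Itgam* was higher in the knockout, by 0.26 without IL-4 (adjusted p = 0.00355) and 0.19 with IL-4 (adjusted p = 0.0473), and *Itgb3* by 0.56 with IL-4 (adjusted p = 0.0258). None of the 7 was called lower in any of the 4 comparisons. *Itgav* was lower in every KO M2 than in every KO M0 library but missed the threshold (-0.21, SE 0.10, edgeR adjusted p = 0.126). Of all tested genes, 14% did not overlap there.

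Of 17 substrates and neighbours of plasmin in matrix turnover 13 were tested. With IL-4, 2 rose and 1 fell in wild type, and 5 rose and 1 fell in the knockout. *Fn1*, fibronectin, went from 106 to 301 CPM in wild type (1.51, SE 0.28, edgeR adjusted p = 0.000521) and from 22.0 to 163 CPM in the knockout (2.89, SE 0.30, edgeR adjusted p = 2.02e-07). *Vwf* rose by 1.32 and 1.26, the macrophage collagenase *Mmp13* by 1.02 in the knockout, and *F13a1*, the A chain of the clot crosslinking factor XIII, fell by 0.91 in wild type and 1.08 in the knockout. In the knockout 1 rose and 7 fell without IL-4, and 2 rose and 5 fell with IL-4 (all tested genes: 4.52% and 4.59% called). *Timp1*, a metalloproteinase inhibitor, fell by 3.06 and 2.40 on the log2 scale, *Timp3* by 1.86 and 1.55, and *Mmp2* by 1.70 and 1.64, while *Vwf* rose by 0.69 and 0.64. *Fn1* was lower in the knockout without IL-4 (-2.27, SE 0.30, edgeR adjusted p = 1.54e-05). With IL-4 its difference of -0.89 (SE 0.27) missed the threshold (edgeR adjusted p = 0.0728). The list medians for the knockout were -0.37 and -0.22, against -0.01 and 0.01 over all tested genes, and the part of the stromal signal was not tested here either.

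The rest of the serpin family showed changes in both directions. Of 65 other genes with a serpin symbol, 30 had 0 counts and 13 were tested. Some of these are near-identical copies, between which reads may have been split, so the values of *Serpina3g*, *Serpinb1c*, *Serpinb6b* and *Serpinb9b* are uncertain. IL-4 raised 3 and lowered 1 in wild type and raised 3 and lowered 0 in the knockout. *Serpinb9b*, of the intracellular clade to which *Serpinb2* belongs, rose from 2.795 to 6.65 CPM in wild type (1.25, SE 0.14, edgeR adjusted p = 2.41e-07) and from 4.63 to 16.8 CPM in the knockout (1.86, SE 0.13, edgeR adjusted p = 3.49e-11). In the knockout 3 were higher and 4 lower in each state (all tested genes: 4.52% called without and 4.59% with IL-4). The 3 higher were of that same clade, *Serpinb9b* (0.73 and 1.33), *Serpinb1c* (0.85 and 0.99) and *Serpinb6b* (0.55 and 0.65). Most of the 13 tested genes of this list were of that clade, and those not named here were not called between the genotypes in either state. *Serpinh1*, the collagen chaperone HSP47, was among the lower (-3.21 and -3.24), and so was *Serpina3g* (-1.51 and -1.44). Direction in the knockout thus differed within the clade, where *Serpinb2* was lower. *Serpina3g*, *Serpinb1c* and *Serpinb6b* were picked to be named after their values were seen. The part of the stromal signal in the lower serpins, such as *Serpinh1*, was not tested.

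Across all 24 libraries, the genes whose log2 CPM followed each tested member most closely were found by Pearson's r, given without a test because groups and depth are shared by all genes. *Serpinb2* was followed most closely by *Inhba* (r = 0.954), *Dcn* (0.952) and *Ehd2* (0.943), and *Serpinf1* by *Serpinh1* (0.955), *Loxl2* (0.951) and *Ctgf* (0.949). These 6 were all lower in the knockout groups, *Inhba* for example at 7.39 and 5.70 CPM in WT M0 and M2 against 0.981 and 1.37 CPM in KO M0 and M2. *Serpine2* was followed by *AC166110.3* (0.915), a transcribed processed pseudogene at chr17:13341241-13345880, *S1pr1* (0.91) and *Rab27a* (0.897), which were lower with IL-4 in both genotypes. *Plaur* was followed by *Dnajc16* (0.929), *Galns* (0.905) and *Snn* (0.903), and *Plau* by *Bcl2l1* (0.877), *Pdk1* (0.851) and *Glg1* (0.851). Between members, r was 0.836 for *Serpinb2* with *Serpinf1* over the 24 libraries and -0.08 once the group means were taken off.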

How the data were processed

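RNA from 24 libraries was sequenced as 40 bp single reads after a Kapa Hyperprep preparation, per the labels' protocols. For each gene the authors deposited expected counts, already rounded, and a signal named GETMM, which is adjusted for gene length as well as depth. Per the submitters' processing notes, the tools were Bowtie2 2.3.4.1, RSEM 1.3.0, CASAVA 2.8.0 and edgeR, on mm10. Whether strand was kept is not stated, so overlapping or near-identical genes may share reads.

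A minimum count of 10 in filterByExpr left 12797 genes with 99.8% of counts. TMM-scaled counts were tested with edgeR (4.0.16, R 4.3.3), using robust quasi-likelihood F tests in 1 fit of the 4 groups. P-values were adjusted by Benjamini-Hochberg across these genes, and 0.05 was the threshold. Standard errors are the log2 fold change divided by the root of F. The procedure was tested on simulated data. Summed marker levels use total counts. Intervals of summed counts are exact binomial at 95% and cover counting error only, not the spread between libraries. The most similar library pair within a group differed by 2.66 in chi-square per degree of freedom, so none was taken for a copy. Total counts of 7893809 to 13492507 limit genes at a few counts.

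The members and lists were chosen with earlier results of these data known. The test of differences between sets of replicates was chosen after seeing the data. In each list the plan was to name at most 4 genes per comparison, those past the threshold with the smallest adjusted p. Some named genes are also given in comparisons where they ranked lower. For each tested member the 3 genes of highest correlation are named, leaving out members and predicted genes. Alternatives were RLE scaling, other filters, fits of 2 groups, a covariate for the replicate set, each set alone, 3 libraries left out, each library left out, replicate blocks, DESeq2 1.42.0 and limma 3.58.1 on log2(GETMM + 1). Sequences are from RefSeq (GRCm38.p6) and GENCODE M21. Some genes of the lists are counted but not reported here.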

Additional observations from a re-analysis of the deposited data

Results flagged for a closer look

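*Plat* in KO M0 replicate 1 stood apart from the other 5 libraries of its group, at 0.348 CPM (3 counts) against at most 0.100004 CPM. It was the only such library in 24 combinations of gene and group. For normally spread values chance alone flags about 1 in 20, a rate that need not hold for counts as low as these.

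The difference in *Serpine2* between knockout and wild type depended on the set of replicates: the log2 fold change in replicates 4 to 6 minus that in replicates 1 to 3 was -1.12 without IL-4 and -1.34 with IL-4, both past the threshold in edgeR's test over all genes (adjusted p = 0.0247 and 0.0286). The test between the sets was chosen after seeing the data.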

How the results depend on the processing

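The number of members called was 1, 2, 2 and 3 for the IL-4 response of wild type and of knockout cells and for the knockout without and with IL-4. For IL-4 in wild type it became 2 in the fit of the 2 groups alone, with a term for the set of replicates, and with a replicate block by replicate number or by culture number, where *Plaur* joined (adjusted p 0.0303 to 0.0453). For the knockout with IL-4 it became 1 in the fit of the 2 groups alone, where *Serpinf1* fell below the filter and *Serpine2* missed the threshold (adjusted p = 0.0587). Leaving out 1 library gave 1 to 1, 2 to 3, 2 to 2, 2 to 3 and, for the difference of responses, 0 to 0. Called values of *Serpinb2* and *Serpinf1* by genotype, of *Serpine2* by IL-4 and of *Plaur* by IL-4 in knockout stayed past the threshold in every alternative that tested them. Their sizes moved: without IL-4 *Serpinb2* by genotype ran from -5.21 (replicates 4 to 6) to -1.55 and *Serpinf1* from -3.11 to -1.89, and with IL-4 from -2.81 to -1.29 and from -3.59 to -1.90, the smallest each with limma on log2(GETMM + 1), a scale that understates changes of low genes. *Serpine2* in the knockout with IL-4 stayed so in 6 of 11. Uncalled values changed sign for *Plau* by IL-4 in wild type (0.030 without the 3 libraries numbered apart), *Serpinb2* by IL-4 in wild type (0.017 with no filter, 0.069 in replicates 4 to 6, 0.053 without those 3 libraries, -0.18 to 0.13 leaving out 1 library), *Serpine2* in the knockout without IL-4 (0.37 in replicates 1 to 3) and *Plaur* in the knockout with IL-4 (0.029 in replicates 4 to 6). The causes were not tested.

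Same-numbered cultures were not treated as paired in the main fit, since the labels do not say what the numbers mark. Deviations of M0 and M2 libraries with 1 culture number correlated at -0.04 to 0.35, above 0.1 in 8 of 12 pairs. Of 12 libraries 7 correlated best with their own number, so pairing was not excluded. Across genotypes, r was -0.30 to 0.48 by replicate number, above 0.1 in 4 of 12. Under the culture block *Plau* was also called for IL-4 in knockout (-0.28, adjusted p = 0.00764). Under the block by replicate number *Plau* was called in the knockout without IL-4 (0.51, adjusted p = 0.0148) and *Serpine2* with IL-4 was not (-0.80, adjusted p = 0.0752). Culture is nested in genotype, so no culture block was run for the knockout.

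Over all genes, replicates 1 to 3 alone gave 857, 1472 and 305 calls for the IL-4 response of wild type, that of the knockout and the knockout with IL-4 (2103, 3024 and 588 with all), and replicates 4 to 6 alone gave 956 and 1056 for the knockout without and with IL-4 (579 and 588 with all). The difference of responses gave 21 calls in replicates 4 to 6, 1 with DESeq2, 3 with limma and 2 with the culture block, against 0. Depth limits *Plat*, *Serpinb2* and *Serpinf1*, which hold a few counts per knockout library.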
